A study of Homo sapiens with 8 samples.

Results

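The cytoplasmic tRNA-Cys gene copies examined here carry the anticodon GCA and were chosen by position in hg19, 12 by their own coordinates on chromosomes 1, 3, 4 and 7 and the others as the copies on the minus strand of chr17:37017900-37025700. That stretch held 2 copies, so there were 14, of 36 tRNA-Cys copies found in the genome. RNA bound by NSun3 or NSun6 in HEK293 cells, a line derived from human embryonic kidney, was mapped by miCLIP. In this assay a mutant methyltransferase remains covalently linked to its target cytosine, and reverse transcriptase stops next to the linked base. Myc-tagged NSun3 or NSun6 was transfected into otherwise unmodified cells, which were collected after 24 hours and immunoprecipitated with an anti-myc antibody, with 3 libraries per enzyme and no untransfected control. The other 2 samples are bisulfite RNA-seq of the same cell line, deposited as 1 table, in which 5-methylcytosine stays unconverted. The enzymes are thus expressed from transient constructs, and nothing in the labels says whether the 3 libraries of an enzyme came from separate transfections, so p-values measure the spread between these libraries.

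Transfer RNA-Cys reads the cysteine codons of mRNA and is charged by cysteinyl-tRNA synthetase. RNA polymerase III transcribes it with a leader and a trailer, RNase P and RNase Z remove these, and an enzyme then adds the bases CCA to the 3′ end. NSun6 is known to methylate tRNA-Cys and tRNA-Thr at C72, the last paired base of the acceptor stem, in tRNAs that carry CCA, whereas NSun3 is known as an enzyme of mitochondria.

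The NSun3 libraries held 47352 to 138921 reads and the NSun6 libraries 305392 to 467586, so 1 read was worth 7.2 to 21.1 RPM (reads scaled by the total of their library) with NSun3 and 2.14 to 3.27 RPM with NSun6. The gene NSUN6 held 327, 446 and 333 reads in the NSun6 libraries and none in those of NSun3. NSUN3 held 32 and 19 reads in NSun3 replicates 1 and 2 but none in the library labelled NSun3 replicate 3, and 1, 0 and 8 in NSun6 replicates 1, 2 and 3. The counts of copies, cytosines and genes called below are therefore given also without the library labelled NSun3 replicate 3. In its reads of initiator tRNA-Met that library was like the other NSun3 libraries. These held 29345, 13470 and 13340 reads in NSun3 replicates 1, 2 and 3, against 62, 45 and 43 in NSun6 replicates 1, 2 and 3. In the bisulfite table the HEK293 markers VIM, KRT8, KRT18, NEFM, NEFL and INA each had at least 419 exon cytosines covered by over 5 reads, against 0 for PTPRC, HBB and MYH7, 17 for ALB and 890 for COL1A1.

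The copies are short and near-identical, which limits where a read can be placed, so the sequences of the 6 copies with at least 20 reads are shown first. Each is given 5′ to 3′ on its own strand from hg19, with 5 bases of leader and 5 of trailer, and capitals mark the bases at which at least 10% of its NSun6 reads start. The last sequence, which had too few reads for capitals, is shared in full by 4 copies of the family and serves for comparison.
chr17-A (chr17:37025540-37025621, minus): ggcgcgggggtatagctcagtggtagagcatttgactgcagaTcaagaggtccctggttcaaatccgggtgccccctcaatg
chr17-B (chr17:37017932-37018013, minus): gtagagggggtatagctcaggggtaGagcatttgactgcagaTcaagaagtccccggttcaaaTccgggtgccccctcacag
chr7-A (chr7:149007276-149007357, plus): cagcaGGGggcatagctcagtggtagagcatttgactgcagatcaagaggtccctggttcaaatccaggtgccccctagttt
chr3-A (chr3:131947939-131948020, minus): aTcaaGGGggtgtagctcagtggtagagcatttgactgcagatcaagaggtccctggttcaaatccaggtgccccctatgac
chr1 (chr1:93981829-93981911, minus): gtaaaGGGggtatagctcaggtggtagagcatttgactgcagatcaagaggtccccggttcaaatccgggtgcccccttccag
chr7-B (chr7:149243626-149243707, plus): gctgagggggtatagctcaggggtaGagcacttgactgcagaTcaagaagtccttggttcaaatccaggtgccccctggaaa
chr3-B (chr3:131950637-131950718, minus): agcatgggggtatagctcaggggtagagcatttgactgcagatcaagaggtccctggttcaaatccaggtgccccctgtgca

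Positions are counted from 1 at the first base of a copy, 5′ to 3′, and the base just before it is 0. Of the 14 copies 12 were 72 bases long, and their anticodon loop spans bases 31 to 37, with the anticodon at 33 to 35. In the usual tRNA numbering base 38 is position 39, the first base after that loop, base 57 in the T loop is position 58 and base 71 is position 72. All 14 start with G and none is followed by CCA in the genome. The 91 pairs of copies differed by a median of 4.0 edits and at most 9. Relative to chr3-B, with the base of chr3-B first, chr17-A differs by G16T and A62G, chr17-B by G44A, T50C and A62G, chr7-A by T6C and G16T, chr3-A by A7G and G16T, and chr7-B by T26C, G44A and C49T. The copy chr1 has 73 bases and differs from chr3-B by 3 edits, among them an added base. The 2 copies on chromosome 3 lie in an intron of CPNE4 on its strand, and chr1 lies in an intron of FNBP1L on the opposite strand. The 2 copies on chromosome 17, chr7-A and chr7-B lie in no annotated gene.

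Reads in the tRNA-Cys copies came from the NSun6 libraries almost alone. The 14 copies together held 1278, 1777 and 1115 reads with NSun6 replicates 1, 2 and 3, and 20, 0 and 0 with NSun3. These are 3800 ± 147 RPM (SD, n = 3) with NSun6 and 48.0 ± 83.1 RPM with NSun3, or 0.38% ± 0.0147 of all NSun6 reads and 0.0048% ± 0.00831 of all NSun3 reads. The ranges did not overlap, since the lowest NSun6 share was 0.365% and the highest NSun3 share 0.0144%. The exact two-sided permutation test gave p = 0.1, the smallest that 3 libraries against 3 allow. Outside mtDNA the shares were 0.417% ± 0.0178 and 0.00769% ± 0.0133 (exact p = 0.1). No read lay on the opposite strand of any of the 14 copies.

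The copies differed widely among themselves. The copy chr17-A held 799, 1144 and 687 NSun6 reads in replicates 1, 2 and 3, or 2390 ± 120 RPM, and no NSun3 read. Its share of the NSun6 reads of all 14 copies was 62.8% ± 1.41 (SD, n = 3). The other copy on chromosome 17, chr17-B, held 220, 353 and 243 NSun6 reads, or 743 ± 59.1 RPM, and 4 reads in NSun3 replicate 1 alone. The pair on chromosome 17 thus took 82.5% ± 2.4 of the NSun6 reads.

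Next in order stood chr7-A with 110, 109 and 71 NSun6 reads (268 ± 61.6 RPM) and chr3-A with 84, 94 and 71 (231 ± 29.2 RPM). Their ranges over the libraries overlapped, so these neighbours were not separated. The copy chr3-A also held 14 reads in NSun3 replicate 1 and none in the other NSun3 libraries. The copy chr1 held 32, 48 and 22 NSun6 reads (91.2 ± 16.7 RPM) and chr7-B held 22, 25 and 18 (60.1 ± 7.29 RPM), neither with an NSun3 read. All the NSun6 libraries lay above all the NSun3 libraries in these 6 copies, as they did in 88.9% of the genes and tRNA copies tested.

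**Figure D1:**
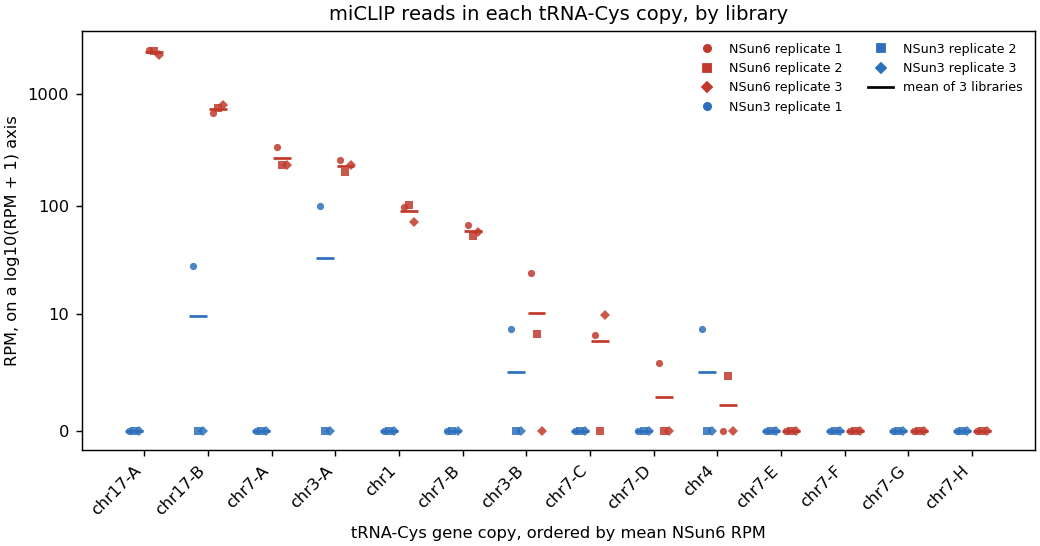
RPM in each of the 14 tRNA-Cys copies on a log10(RPM + 1) axis, by library, with NSun6 in red, NSun3 in blue and the mean of 3 libraries as a line. The copies are ordered by mean NSun6 level, from 2390 RPM in chr17-A to none in the last 4, and only NSun3 replicate 1 rises above 0 among the NSun3 libraries.

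The remaining 8 copies held few reads or none. The copy chr3-B held 8, 3 and 0 NSun6 reads and 1 NSun3 read, and 3 further copies, starting at 149074602 and 149072850 on chromosome 7 and at 124430005 on chromosome 4, held 5, 1 and 1 NSun6 reads. The 4 copies starting at 149028220, 149052766, 149112229 and 149253802 on chromosome 7 held none in any library. A count of 0 in an NSun6 library allows up to 6.42 to 9.82 RPM (3 reads, counting error only).

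The counts of each copy were compared between the enzymes by the quasi-likelihood test of edgeR within the whole table of 1736 genes and tRNA copies that passed the filter on low counts. Of the 14 copies 6 passed, and 5 of them were lower in NSun3 at a Benjamini-Hochberg adjusted p under 0.05, beside 82.4% of everything tested. That share of copies is close to the background. All 6 passed through their NSun6 reads, since among the NSun3 libraries only replicate 1 had a read in any of them. Of the 5 called, 4 had no NSun3 read, so this set their direction. The filter favoured copies high in NSun6, and the values below, those of chr17-B included, are a description. With no filter 6 of 10 copies with a read were lower, beside 25.1% of 15808 features. Most of those features had too few reads for the filter, so these shares differ in depth and are a description. The median log2 fold change (NSun3 over NSun6) of all tested features was -7.34 here and -3.82 with DESeq2. The copy chr17-A was at least 50.6-fold lower in NSun3, taking the mean floor of 3 reads per NSun3 library (47.2 RPM) for its 0 reads (edgeR adjusted p = 0.00142). By the same bound chr7-A was at least 5.69-fold lower (edgeR adjusted p = 0.00218), chr1 at least 1.93-fold (edgeR adjusted p = 0.00602) and chr7-B at least 1.27-fold (edgeR adjusted p = 0.00452). For chr17-B the log2 fold change was -4.19 ± 1.27 (SE, edgeR adjusted p = 0.0182), and it was -10.47 without NSun3 replicate 1, which holds its 4 NSun3 reads.

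The copy chr3-A did not pass the test, with a log2 fold change of -0.66 ± 1.31 (edgeR adjusted p = 0.647). Its 14 NSun3 reads all started at base 48, where no NSun6 library had a read, and without NSun3 replicate 1 the log2 fold change was -8.79 (edgeR adjusted p = 0.000643). Over its 15 alternatives the adjusted p ranged from 3.36e-05 to 0.983. Leaving out the library labelled NSun3 replicate 3 left 5 of 6 copies lower, beside 54.9% of the 3292 features then tested. Without NSun6 replicate 1 or replicate 2, 4 copies passed the filter and 3 of them were lower, beside 80% and 77% of all features.

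Within the copies, most reads started at a few bases, and these differed between copies. In chr17-A base 38, a T next to the anticodon loop, held 692 of 799, 735 of 1144 and 530 of 687 NSun6 reads, or 76.0% ± 11.2 (SD, n = 3). In chr17-B base 38 held 62.4% ± 8.15 and in chr7-B it held 73.7% ± 11. The same base was thus the leading start in 3 copies on 2 chromosomes, and no other copy had a read there.

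Base 21, in the D arm, held 23.6% ± 9.86 of the NSun6 reads of chr7-B and 11.3% ± 2.49 of those of chr17-B, and it held none in chr17-A. Summed over the NSun6 libraries, the leading start in the T loop was base 58 in chr17-A and base 59 in chr17-B. In NSun6 replicate 1 bases 55 and 57 of chr17-A held 10 and 8 reads, against 5 at base 58. In chr17-A base 58 held 5 of 799, 173 of 1144 and 59 of 687 reads in NSun6 replicates 1, 2 and 3, or 0.626%, 15.1% and 8.59%, with exact 95% binomial intervals of 0.203 to 1.45%, 13.1 to 17.3% and 6.6 to 10.9%, which cover counting error only. In chr17-B base 58 held no read and base 59 held 17, 49 and 27 reads, or 10.9% ± 3.09, against 0, 5 and 4 reads at base 59 of chr17-A. The share at base 58 of chr17-A thus varied widely between the 3 NSun6 libraries. From base 58 on, chr17-A and chr17-B have the same bases up to their end, so in hg19 only the trailer separates such reads. The shortest reads with a single place, 18 nt from base 58 of chr17-A and from base 59 of chr17-B, end 3 and 4 bases past the copy. These lengths are for exact matches to hg19 and leave out the 1 mismatch allowed in alignment. They also leave out the CCA of mature tRNA, where the trailers begin CAA in chr17-A and CAC in chr17-B. Whether placement sets the difference between the copies at these bases was not tested.

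Reads of chr7-A, chr3-A and chr1 started instead at the 5′ end. In chr7-A bases 1, 2 and 3 held 35.6% ± 16.6, 35.6% ± 13.9 and 17.2% ± 8.67 of the NSun6 reads, and no read started after base 5. In chr3-A bases 1 and 2 held 19.4% ± 11.1 and 31.1% ± 13.5, and base -3 in the leader held 27.1% ± 3.3, with 21, 29 and 18 reads. In chr1 base 1 held 11, 16 and 12 reads, base 2 held 0, 19 and 3, and base 3 held 20, 5 and 0, so the order of these starts changed from library to library. The plot of start positions shows the 2 patterns side by side.

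**Figure D2:**
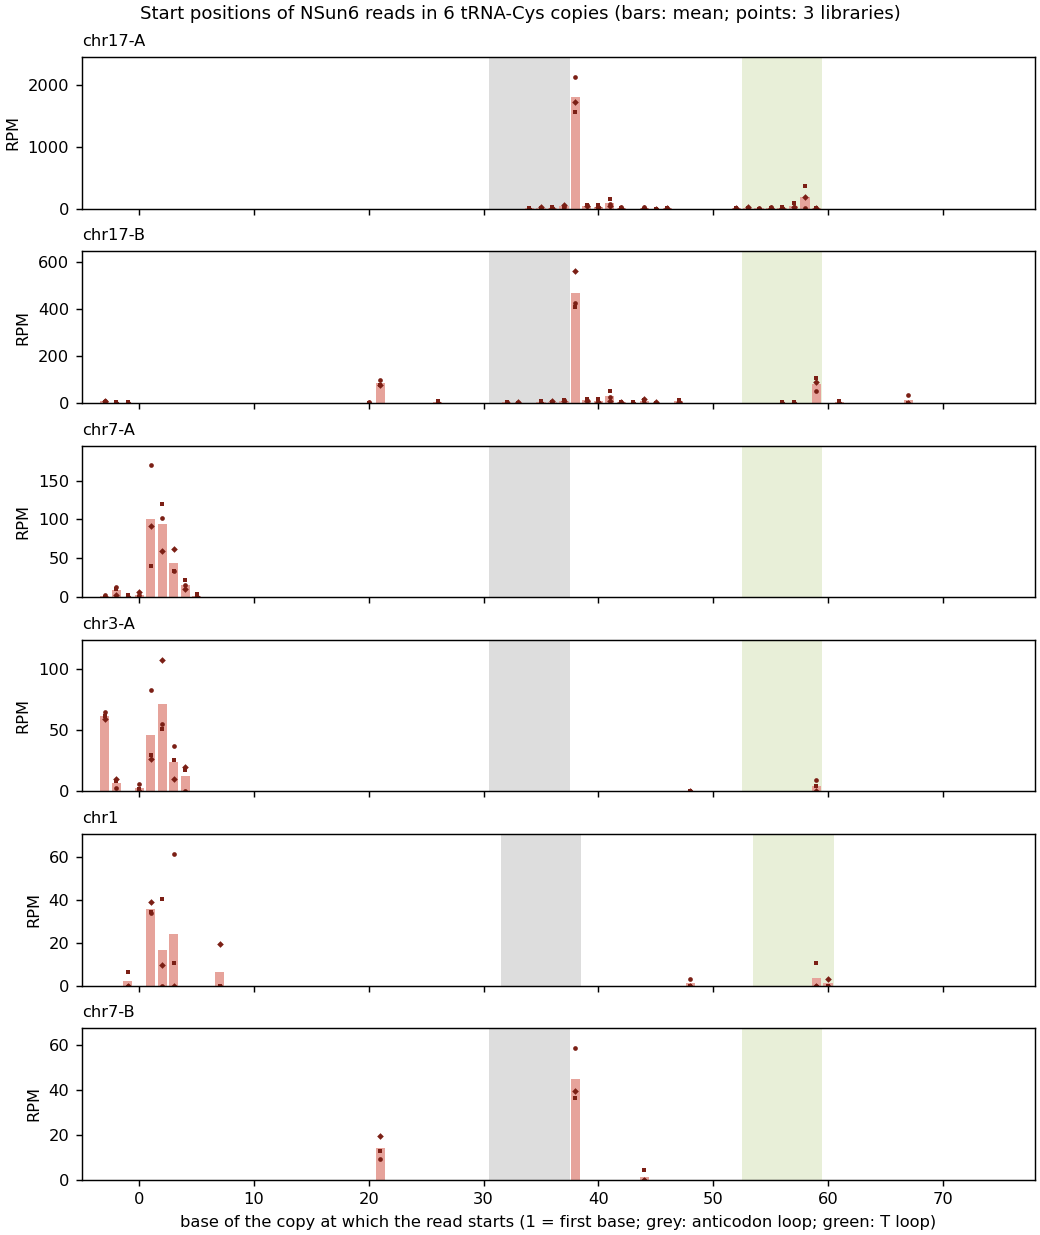
RPM with NSun6 (vertical axis, a scale for each copy) by the base at which they start (horizontal axis), for the 6 copies with at least 20 reads, with bars for the mean and points for the 3 libraries. Base 38, just after the grey anticodon loop, leads in chr17-A, chr17-B and chr7-B, while bases 1 to 3 lead in chr7-A and chr1 and share the lead with base -3 of the leader in chr3-A, and the green band marks the T loop.

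Summed over the 14 copies, the 3′ strand of the anticodon stem held 67.3% ± 4.75 (SD, n = 3) of the NSun6 reads, the 5′ strand of the acceptor stem 13% ± 1.94, the T loop 10.4% ± 6.16, the leader 2.63% ± 0.064 and the anticodon loop 2.45% ± 0.724. All 20 NSun3 reads started in the T arm, 14 in the 5′ strand of its stem and 6 in its loop.

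At the end of the acceptor stem, where NSun6 is known to act, the copies had no assigned read. The study's rule gives each read to the nearest cytosine within 2 nt, and by it 0 of 4170 NSun6 reads fell on the cytosine at position 72, which allows a share of up to 0.0719% for counting error. Reads starting in the last 18 bases made up 10.4% ± 5.9 of the NSun6 reads (466 of 4170), mostly the T-loop starts above, and the start closest to the 3′ end was base 67 of chr17-B, with 11 reads in NSun6 replicate 1. The files cannot show a start at position 72 in a mature tRNA. A copy of 72 bases with CCA is 75 nt long, so base 58 is the last from which 18 nt remain, the shortest read that was kept. NSun6 reads from later bases, which must run past the CCA end, came to 134 (3.16% ± 0.349). The share of NSun3 reads at the end of the acceptor stem was not compared because no NSun3 library but replicate 1 had a read in the copies.

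By the same rule 27 of the 275 cytosines in the copies and their flanks had a read in some library. In NSun6, 7 passed the study's limit for a high-confidence site, over 50 RPM in at least 2 of 3 libraries, and in NSun3 none did. The share of all cytosines that passed this limit is not given here, so these counts are a description. Among the 7 sites were cytosines 39, 55 and 60 of chr17-A and 39 and 60 of chr17-B. The others were the leader cytosines at -1 of chr7-A and -2 of chr3-A. Most reads given to cytosine 39 started at base 38, with 1957 NSun6 reads in chr17-A and 500 in chr17-B. Those given to cytosine 60 started at base 58 or 59. With the position taken as the first base of the read, these cytosines lay inside such reads. Of the NSun6 reads given to cytosine -1 of chr7-A, 102 started at base 1 of the copy. Only 10, 1 and 3 started in its leader, at bases -2, -1 and 0. Cytosine 39 of chr17-A stood at 2030 ± 251 RPM and that of chr17-B at 522 ± 56.9 RPM, both with no NSun3 read. They were at least 43.0-fold and 11.1-fold lower in NSun3 (edgeR adjusted p = 7.42e-05 and 0.000109). Of the 6 cytosines that passed the filter all 6 were lower in NSun3, beside 70.6% of 1737 tested. Since 5 of the 6 had no NSun3 read and passed through their NSun6 reads, their direction was set by the filter. The other, cytosine 60 of chr17-B, had NSun3 reads in replicate 1 alone, so it too passed through its NSun6 reads. The count and the values of these cytosines are a description. Without the library labelled NSun3 replicate 3, 9 passed and 8 were lower, beside 70.6% of all cytosines tested. With no filter 9 of 27 were lower, beside 3.7% of 92350 cytosines, most of which had too few reads for the filter, so these shares differ in depth too. Of the 27, 1 was higher, beside 751 of the 92350. This was cytosine 48 of chr3-A, whose 14 reads all lay in NSun3 replicate 1 and which is named after its values were seen. Cytosine 60 of chr17-B had a log2 fold change of -2.16 ± 0.81, and of -7.5 without NSun3 replicate 1, the only NSun3 library with reads there (edgeR adjusted p = 0.0262 with all libraries, 0.0514 without NSun3 replicate 3, 0.0855 without NSun3 replicate 2, 0.0528 without mtDNA and 0.000799 to 0.18 over its 12 alternatives), and the other 5 kept their calls in each alternative in which they were tested. Among NSun6 reads of the copies 14% ± 0.525 had no cytosine within 2 nt, against 7.68% to 8.58% of all reads in these libraries.

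The start bases lay where a short read can be placed on 1 copy. For each base of the 14 copies and their flanks the shortest read with an exact match at a single place in hg19 was found, since the authors kept reads with a single best place. All 79 bases with NSun6 reads needed at most 30 nt, and the 518 bases that needed over 30 nt held 0 of the 4170 reads, while 12.5% of the 630 bases that needed up to 30 nt had reads. The value of 30 nt was chosen after the reads had been seen, and read lengths were not used here. The mismatch that the authors allowed and the CCA of mature tRNA were left out too.

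From base 38, 3 copies needed at most 30 nt, 25 nt in chr17-A and 18 nt in chr17-B and chr7-B, and these 3 held 2505 NSun6 reads there. The other 11 copies needed 33 to 44 nt and held none. For chr17-A the 25 nt reach base 62, the site of A62G. From base 21 only chr17-B (25 nt) and chr7-B (24 nt) needed at most 30 nt and held reads, whereas chr17-A needed 42 nt. From base 1 chr7-A needed 20 nt, chr3-A 26 nt and chr1 18 nt, and these held 190 reads, while 2 further copies that also needed at most 30 nt held none and the other 9 needed 44 to 81 nt. From base 59 all 14 copies needed at most 23 nt and 6 of them held reads. The 4 copies without reads had 12 to 29 of bases 1 to 57 within 30 nt, against 25 in chr17-A, 42 in chr17-B and 43 in chr7-B. Reads from other bases or copies may have been dropped as having several places, and how far that set the order of the copies was not tested.

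**Figure D3:**
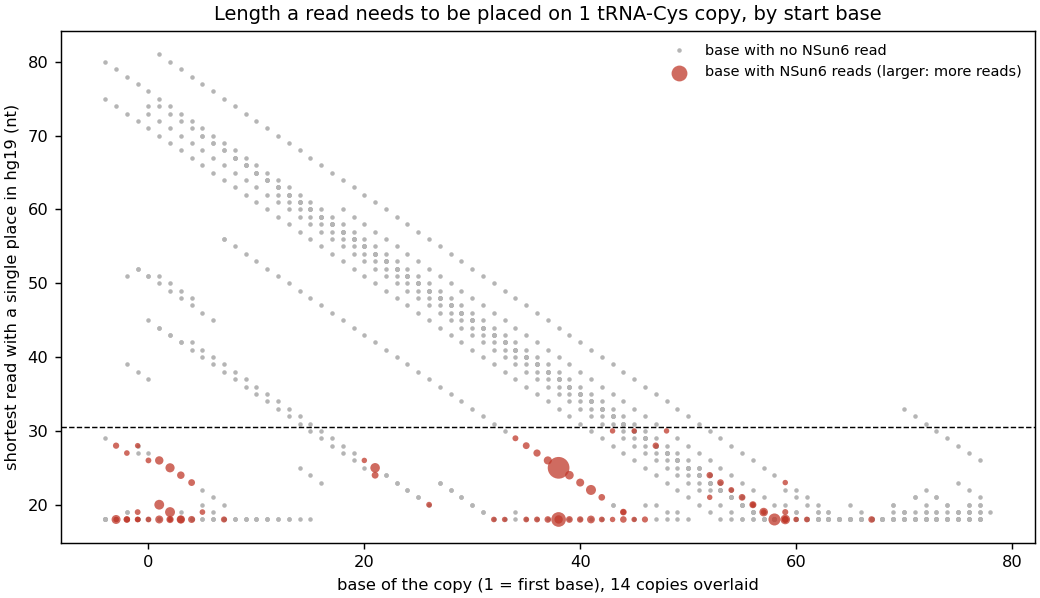
Shortest read in nt with a single place in hg19 (vertical axis) from each base (horizontal axis) of the 14 copies overlaid, with grey dots for bases without and red dots for bases with NSun6 reads, drawn larger for more reads. All red dots lie under the dashed line just above 30 nt, the largest being base 38 of chr17-A at 25 nt.

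The 22 other tRNA-Cys copies of the genome held 1950 ± 113 RPM with NSun6 and 22.2 ± 19.7 RPM with NSun3. Of this, 1090 ± 23.4 RPM lay in 1 copy starting at 149344046 on chromosome 7, which would stand second among the 14. Another, starting at 37310744 on chromosome 17, held 16, 21 and 3 reads in NSun6 replicates 1, 2 and 3 at base 72, which the rule gives to the cytosine at position 72. For comparison, the 19 copies of tRNA-Thr held 11600 ± 1190 RPM with NSun6 and 848 ± 420 with NSun3, the 8 copies of initiator tRNA-Met 143 ± 47.6 and 249000 ± 35500, and the 402 copies of other tRNAs 51700 ± 4790 and 14000 ± 5990. The 15 copies of elongator tRNA-Met, which are not among these other tRNAs, held 701 ± 79.5 and 819 ± 394.

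The share of reads starting at the first base after the anticodon loop was higher in the sum of the 14 copies than in the other tRNA-Cys copies, tRNA-Thr and other tRNAs in each NSun6 library. The loop was located in 13 of the 14 copies and in 16 of the 22 others. The base held 61.1% ± 7.11 (SD, n = 3 NSun6 libraries) of their reads, 20.7% ± 2.28 in the other tRNA-Cys copies, 5.65% ± 0.484 in tRNA-Thr and 30.8% ± 3.01 in other tRNAs. The difference from the other tRNA-Cys copies was 35 to 45 percentage points in the 3 libraries, and the exact paired permutation test gave p = 0.25, the smallest that 3 pairs allow. This pooled share rests largely on chr17-A. Without it the 14 copies had 32.8%, 32.9% and 42.8% in NSun6 replicates 1, 2 and 3, against 33.9%, 27.9% and 30.7% in other tRNAs, so replicate 1 no longer lay above them, and against 20.4%, 12.2% and 22.2% in the other tRNA-Cys copies without their copy of most reads. Leaving these copies out was chosen after seeing the data. In the NSun3 libraries the first base after the loop held 31.3% ± 4.52 of the reads of other tRNAs, near their NSun6 share. In tRNA-Thr it held 0.186% ± 0.323 with NSun3, and the tRNA-Cys copies had too few NSun3 reads for a share. A lead of base 38 was not confined to the 14 copies, since it also led in 3 of the 12 other tRNA-Cys copies with at least 20 NSun6 reads, with 88%, 66.7% and 60.3% of their reads. The share at bases 1 to 3 was 12% ± 2.39 and 11.6% ± 3.38 in the other tRNA-Cys copies, with differences from -5.22 to 5.69 points (exact p = 0.75), and it was 6.04% ± 1.53 in tRNA-Thr and 0.795% ± 0.0813 in other tRNAs, where the 14 copies lay 9.3 to 14 points higher (exact p = 0.25). At 13 or 14 bases before the last base the share was 8.05% ± 5.41 in the 14 copies and 46.1% ± 1.49 in the other tRNA-Cys copies (exact p = 0.25), with 1.29% ± 0.427 in tRNA-Thr and 3.77% ± 0.459 in other tRNAs. In the other tRNA-Cys copies this rests largely on the copy starting at 149344046, where base 59 held 762 of 1203 NSun6 reads, and without it their share was 21.3% ± 9.26. At the same place elongator tRNA-Met had 63.4% ± 5.01 and initiator tRNA-Met 90% ± 10.6 of their NSun6 reads. How far unique placement sets these shares was not tested.

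**Figure D4:**
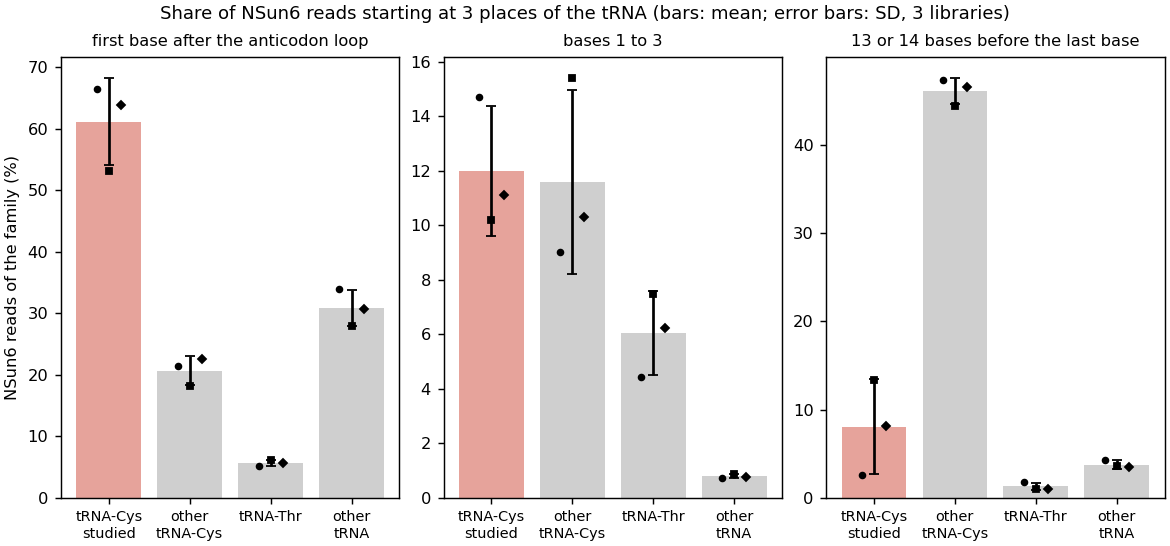
Share of the NSun6 reads of each tRNA family, in percent, that start at the first base after the anticodon loop, at bases 1 to 3 and at 13 or 14 bases before the last base, with bars for the mean, error bars for the SD and points for the 3 libraries. The 14 tRNA-Cys copies (red) lead at the first place with 61.1%, and of the 4 sets drawn the other tRNA-Cys copies have the highest share at the last, 46.1%.

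Bisulfite RNA-seq could not measure methylation in these copies. Of their 242 cytosines 40 had any read and none had over 5, at a coverage of at most 3 at any cytosine. All 74 calls summed over these cytosines were unmethylated, and since 1 read makes a call at each cytosine it covers, these come from fewer reads. No level is given. Among the 22 other copies 15 of 373 cytosines had over 5 reads, all 15 in the copy starting at 149310156 on chromosome 7 at a coverage of at most 7, and none of the 167 calls summed over the cytosines of those copies was methylated.

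The genes whose level over the 6 libraries was most like the sum of the 14 copies, by Euclidean distance of log2(RPM + 1), were CKB (distance 1.82), CALR (1.96), ARHGDIA (2.27), POLR2A (2.3) and SRRM2 (2.35). Each was at 0 in NSun3 replicates 2 and 3 and above 0 in replicate 1, as the tRNA-Cys copies were. Their NSun6 means ran from 1510 RPM in POLR2A to 3970 RPM in CALR.

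Genes for the making and processing of tRNA were read as mRNAs in the same libraries. Of 33 listed genes 27 had a read and 4 passed the filter on low counts, all 4 lower in NSun3, beside 82.4% of everything tested. None of the 4 had an NSun3 read, so they passed through their NSun6 reads, which set their direction. Without the library labelled NSun3 replicate 3, 8 passed and 5 were lower, beside 54.9%. GTF3C2, a subunit of the polymerase III factor TFIIIC, held 82, 89 and 76 NSun6 reads and none with NSun3 (at least 4.89-fold lower, edgeR adjusted p = 0.00203). RPP38 and RPP25, protein subunits of RNase P, held 165 ± 23.6 and 83.5 ± 26.8 RPM with NSun6 and no NSun3 read (edgeR adjusted p = 0.00342 and 0.0113). The fourth was NSUN6 itself, which was transfected. CARS1, the cysteinyl-tRNA synthetase, held 0, 14 and 5 NSun6 reads, ELAC2, the RNase Z, 7, 10 and 7, and TRNT1, which adds CCA, 0, 3 and 0, and these did not pass the filter.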

How the data were processed

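The authors merged miCLIP reads by random barcode, trimmed them, dropped those under 18 nt, aligned them to hg19 with Bowtie allowing 1 mismatch, kept those that mapped uniquely in the best stratum, and deposited whole-number counts of reads at each truncation position. Files carry no strand, so the first pass over the chromosomes was taken as plus (97.0 to 97.4% of NSun6 and 63.0 to 82.0% of NSun3 exon positions matched the exon strand). The deposited position was taken as the first base of the read, which the sources do not state. For bisulfite RNA-seq, aligned with Bismark, the deposited values are percent methylated and counts of methylated and unmethylated reads, in 1 table. Pooling is not stated.

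Copies were found with blastn 2.17.0 and reads counted on their strand with 5 bases added. RPM is over all reads of a library. Counts were compared with edgeR 4.0.16 (quasi-likelihood, TMM, filterByExpr). A run on simulated counts changed 200 features 8-fold, equally up and down. It recovered 72.7% of those tested for genes and tRNA copies and 68.1% for cytosines, and 7.25% and 4.62% of its calls were false. It did not hold the shift to 1 side seen in these data. DESeq2 1.42.0 was an alternative. SE is the size of the log2 fold change over the square root of F. Copies with at least 20 reads over the 6 libraries are given by library, with bases holding at least 10% of a copy's NSun6 reads. The members and lists were chosen with earlier results of these data known. The tRNA genes came from a sequence scan, as the annotation used holds none in the nucleus. Intervals and floors cover counting error only.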

Additional observations from a re-analysis of the deposited data

How the results depend on the processing

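The shares of library reads in the copies kept their direction under each alternative, but with each position counted once they were 0.129% for NSun6 and 0.0135% for NSun3, a difference of 0.115 percentage points against 0.375. Of the 14 copies, 5 of 6 tested were lower in NSun3, beside 82.4% of all features, and 2 of 6 with a replicate block, beside 49.9%. With the block chr1 (edgeR adjusted p = 0.0518), chr7-B (0.0774) and chr17-B (0.0914) lost their calls. Deviations of same-numbered libraries correlated at r = 0.043, 0.074 and 0.0023 over 1736 features. The low depth of the NSun3 libraries limits this check, so it cannot decide whether the replicate numbers pair the libraries. Leaving out 1 library gave 3 to 6 copies of 4 to 6 tested, beside 54.9 to 80% of all features, with 3 without NSun6 replicate 1 or replicate 2, when 4 copies passed the filter. The copies chr17-A and chr7-A were called in all 15 alternatives. For chr3-A the log2 fold change was 0.0439 with DESeq2, against -0.66, and -3.63 with the replicate block, both without a call. Its call was gained with RLE size factors (-3.05), library totals (-2.19), no filter (-2.37) and without NSun3 replicate 1 (-8.79). Of the cytosines, 6 of 6 tested were lower, beside 70.6% of all cytosines tested. With a library left out 2 to 9 were lower, of 2 to 9 tested, beside 55.4 to 81.7%. These were 2 of 2 without NSun6 replicate 3, beside 55.4%, and 3 of 3 without NSun6 replicate 2, beside 56.4%. With each position counted once 0 were lower, when none passed the filter. High-confidence NSun6 sites numbered 7, 4 over 100 RPM and 4 with the cytosine within 1 nt, a description without the share over all cytosines. The share of reads in the last 18 bases was 10.4%, 16.7% with each position counted once and 7.16 to 13% with an NSun6 library left out. Cytosines with bisulfite coverage numbered 0 over 5 reads and 40 with at least 1. With no filter 13 of 27 genes of the tRNA list were lower, not 4 of 4, beside 25.1% of all features, and 3 to 6 of 3 to 8 tested with a library left out, beside 54.9 to 80%. With the replicate block 3 of these 4 genes were lower, beside 49.9% of all features. Counting without added bases, chosen after seeing the data, left 5 of 6 copies lower, beside 82.2% of all features. Over all genes and tRNA copies 93 were higher and 1430 lower in NSun3, 57 and 867 with the replicate block and 214 and 3969 with no filter. For the copies, 77 of 85 alternative values kept their direction and call, and for the cytosines 68 of 72. Depth limits the NSun3 side, where 3 reads are 21.6 to 63.4 RPM.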
